A study of Mus musculus with 2 samples.

Results

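Norrin, its receptor complex and the genes that respond to Wnt signalling were followed in single cells of the mouse retina at postnatal day 6. The 9 genes were taken by symbol from the 32285 genes of the files: the ligand gene Ndp, the receptor genes Fzd4, Lrp5 and Tspan12, and the response genes Lef1, Axin2, Apcdd1, Tnfrsf19 and Nkd1. Cells had been enriched with beads against CD31, an endothelial surface protein, and sequenced from the 3′ ends of transcripts. One library came from control retinas that carried floxed Alk1 alleles alone (Alk1 f/f). The other, labelled Alk1 ECKO and called the knockout below, carried the same floxed alleles and CreERT2 driven by the Cdh5 promoter, which is active in endothelial cells. Alk1, encoded by Acvrl1, is a BMP receptor of the vessel wall whose loss is used to model hereditary hemorrhagic telangiectasia. With 1 library per genotype there was no replicate, so no test was possible. Each interval below is a 95% interval for counting error only, and each difference is one between these 2 libraries.

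Norrin is a secreted cysteine-knot protein that binds the receptor Frizzled4 together with the co-receptor LRP5. The tetraspanin TSPAN12 strengthens this signal, which stabilises β-catenin and lets it act with TCF and LEF factors in the nucleus. In the retina the pathway is known from familial exudative vitreoretinopathy and Norrie disease, in which retinal vessels grow incompletely, and from the retinal vascular barrier, which it maintains. Lef1 encodes one of the nuclear partners, and Axin2, Apcdd1, Nkd1 and Tnfrsf19 are response genes, several of whose products feed back on the pathway.

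There were 8739 barcodes and 54800465 UMIs in control and 5308 barcodes and 62728605 UMIs in the knockout. After filtering and doublet removal 7409 and 4093 cells were retained. The libraries shared 20 barcodes, of which 14 were retained in both. Clustered without the 9 genes and named from marker genes, the cells included 309 control and 1264 knockout endothelial-like cells, and 652 and 175 Müller glia-like cells. Class names below stand for such "-like" clusters. Pecam1, the gene for CD31, was at 566 and 473 CPM (UMIs of a gene per 1000000 UMIs of the class) in the endothelial class, and the glial marker Rlbp1 was at 1191 and 1199 CPM in Müller glia. A further 1226 knockout and 3 control cells formed an endothelium-matched cluster with a median mitochondrial share of 0.404% in the knockout. Its C1qa level, a macrophage transcript, was 770 CPM, and it was set aside. Acvrl1 itself was at 115 CPM in control against 118 CPM in knockout endothelial cells. The deleted exons are not stated in the labels, so this 3′ tag checks neither the deletion nor the label.

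Ndp (ENSMUSG00000040138, chromosome X, 16885521 to 16911774, minus strand), the ligand gene, was highest in Müller glia among classes of at least 50 cells. Its level there was 25.2 CPM (20.6 to 30.5, 105 UMIs) in control against 12.03 CPM (6.01 to 21.5, 11 UMIs) in the knockout. Among classes of at least 50 cells the next level was 7.03 CPM (2.83 to 14.5) in control late progenitors, the dividing cells that give rise to late retinal types, and that interval lay below the one of control Müller glia. Control amacrine cells, inhibitory interneurons, held 3.09 CPM (0.841 to 7.91). The 22 knockout amacrine cells held 26.6 CPM (7.25 to 68.2) from 4 UMIs, which overlapped the interval of knockout Müller glia. Endothelial cells held 0.193 CPM (2 UMIs) in control against 0.185 CPM (7 UMIs) in the knockout, where several classes held no Ndp UMI. Astrocytes, the glia over which retinal vessels first spread, held 2 UMIs in each library from 21 and 17 cells, or 9.04 CPM (1.10 to 32.7) in control against 11.9 CPM (1.44 to 43.1) in the knockout, which places them in no order. When every cell was reduced to 5000 random UMIs (thinned), 11.1% of control Müller glia (8.41 to 14.3, 468 cells) and 4.21% of knockout Müller glia (1.16 to 10.4, 95 cells) held an Ndp UMI. Without thinning these shares were 13.7% and 6.29%, at median depths of 6150 and 5232 UMIs. Thinned to 2000 UMIs they were 5.27% (3.66 to 7.32) and 3.18%, with overlapping intervals. After thinning 0 of 286 control (0 to 1.28%) and 0 of 914 knockout endothelial cells (0 to 0.403%) held one, and the share in microglia or macrophages was 0.495% in the knockout. The ligand transcript was thus counted in glia and hardly at all in the vessel cells.

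The receptor genes were counted on the other side, in vessel cells. Fzd4 (ENSMUSG00000049791, chromosome 7, 89404355 to 89413134, plus strand), which encodes the norrin receptor, was at 69.4 CPM (64.4 to 74.7) in control against 72.7 CPM (70.0 to 75.5) in knockout endothelial cells. Mural cells, which wrap the vessels as pericytes or smooth muscle, came next with 36.3 CPM (29.1 to 44.8) in the knockout. Every other class of at least 50 cells lay at or below 7.20 CPM, with overlapping intervals among most of them. Tspan12 (ENSMUSG00000029669, chromosome 6, 21771395 to 21852515, minus strand) was at 74.6 CPM (69.5 to 80.1) in control against 65.4 CPM (62.9 to 68.1) in knockout endothelial cells. It was as high in knockout mural cells, at 81.8 CPM (70.7 to 94.1), and the few astrocytes held 58.8 CPM (31.3 to 101) in control against 53.7 CPM (24.6 to 102) in the knockout. Microglia or macrophages held no Tspan12 UMI, which in the knockout allows up to 0.979 CPM. Lrp5 (ENSMUSG00000024913, chromosome 19, 3584828 to 3686564, minus strand) did not mark vessels in this way. Its 19.5 CPM (16.9 to 22.4) in control endothelial cells overlapped the 17.5 CPM (9.06 to 30.6) of control microglia or macrophages and the 13.9 CPM (10.6 to 17.97) of control Müller glia. It was 5.14 CPM in cones and 3.18 CPM in rods of the control library.

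**Figure D1:**
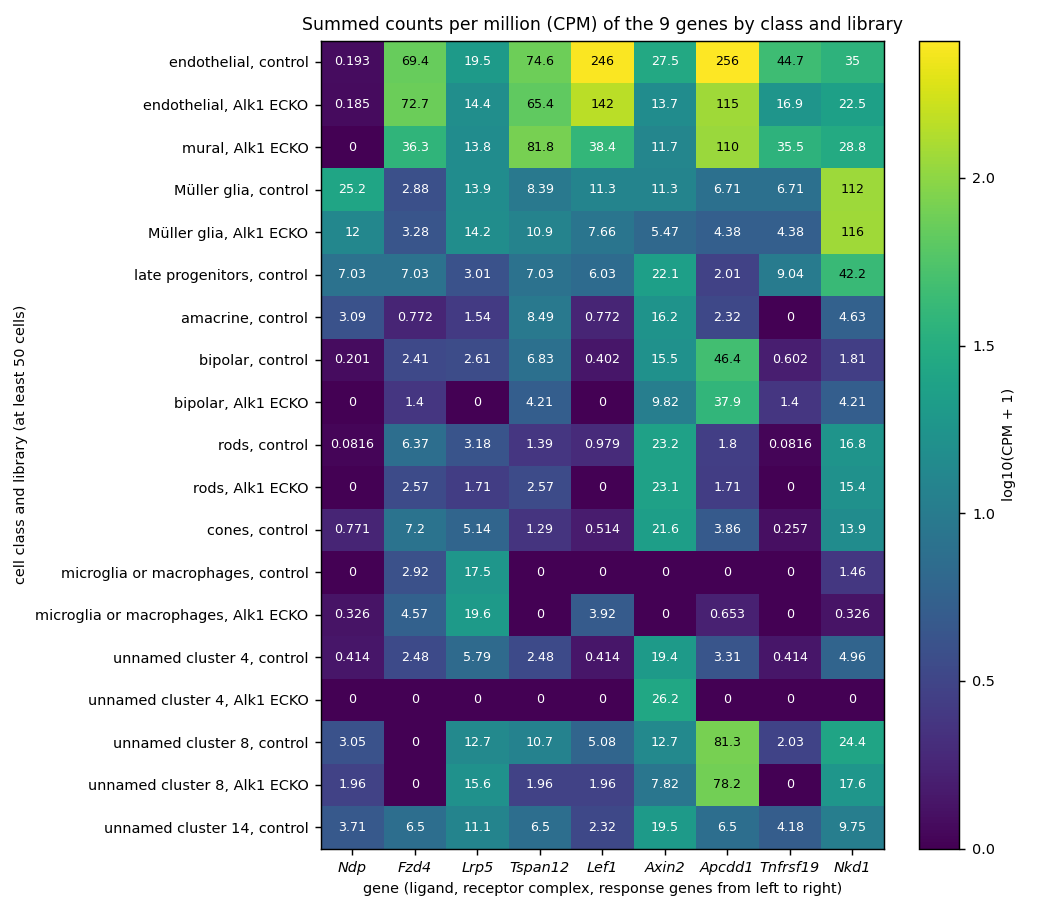
Summed CPM of the 9 genes (columns) in each cell class with at least 50 cells of a library (rows), coloured on a log10(CPM + 1) scale with the CPM printed. Ndp was highest in control Müller glia (25.2 CPM), Fzd4 in endothelial cells of both libraries, and Nkd1 in Müller glia of both libraries.

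The response genes differed in how far they reached beyond the vessels. Lef1 (ENSMUSG00000027985, chromosome 3, 131110471 to 131224356, plus strand) was at 246 CPM (236 to 255) in control against 142 CPM (139 to 146) in knockout endothelial cells. Mural cells followed with 38.4 CPM (30.9 to 47.1), and every neuronal class named from markers was at or below 0.979 CPM. Tnfrsf19 (ENSMUSG00000060548, chromosome 14, 60963875 to 61046490, minus strand), a receptor of the TNF family also called Troy, was highest in control endothelial cells among classes of at least 50 cells, at 44.7 CPM (40.7 to 49.0). Its level in knockout mural cells, 35.5 CPM (28.3 to 43.9), overlapped that interval, as did the 76.2 CPM (38.0 to 136) of 11 control mural cells. Knockout endothelial cells stood below both at 16.9 CPM (15.6 to 18.2).

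Apcdd1 (ENSMUSG00000071847) encodes a membrane inhibitor of Wnt signalling. In endothelial cells it was at 256 CPM (246 to 266) in control against 115 CPM (112 to 119) in the knockout. Knockout mural cells held 110 CPM (96.9 to 124), which overlapped the knockout endothelial interval. Apcdd1 was also counted outside the vessels. It was at 46.4 CPM (40.6 to 52.8) in control against 37.9 CPM (24.97 to 55.1) in knockout bipolar cells, the interneurons that link photoreceptors to ganglion cells. In a cluster led by Mybl1 and Vxn that no marker list named, it was at 81.3 CPM (69.2 to 94.9) and 78.2 CPM (55.9 to 107). In both classes the intervals of the libraries overlapped. Axin2 (ENSMUSG00000000142, chromosome 11, 108920349 to 108950783, plus strand), the scaffold of the β-catenin destruction complex, was the most evenly spread of the response genes. Control endothelial cells held 27.5 CPM (24.4 to 30.9), control rods 23.2 CPM (20.6 to 26.0) and control cones 21.6 CPM (17.2 to 26.7), and these neighbours overlapped. In the knockout, endothelial cells held 13.7 CPM (12.5 to 14.9), below rods at 23.1 CPM (15.2 to 33.6). Microglia or macrophages held no Axin2 UMI in either library, which allows up to 4.38 CPM in control against 0.979 CPM in the knockout.

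Nkd1 (ENSMUSG00000031661, chromosome 8, 88521354 to 88594884, plus strand), which encodes a Dishevelled-binding inhibitor, was highest, among whole classes of at least 50 cells, in the glia that hold the ligand. It was at 112 CPM (102 to 123) in control against 116 CPM (94.9 to 140) in knockout Müller glia. Control late progenitors had 42.2 CPM (30.4 to 57.0) and control endothelial cells 35.0 CPM (31.4 to 38.7), overlapping each other but not Müller glia. After thinning, 42.3% of control and 40.0% of knockout Müller glia held an Nkd1 UMI, against 14.3% and 10.6% of endothelial cells and 0.495% of knockout microglia or macrophages.

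Between the libraries, the receptor genes of endothelial cells stayed close to the other genes while the response genes lay lower in the knockout. Ratios here are log2 of knockout over control, minus the median over the 11808 genes with at least 50 UMIs, which was -0.21. Fzd4 was at 0.28 (0.16 to 0.40), Tspan12 at 0.02 (-0.10 to 0.14) and Lrp5 at -0.23 (-0.46 to 0.01). Without centring Tspan12 was at -0.19, so its direction depends on the scaling. Tnfrsf19 was at -1.19 (-1.37 to -1.02), Apcdd1 at -0.94 (-1.01 to -0.87), Axin2 at -0.80 (-1.01 to -0.58), Lef1 at -0.58 (-0.64 to -0.51) and Nkd1 at -0.42 (-0.60 to -0.24). No interval of a receptor gene reached the values of Lef1, Axin2, Apcdd1 or Tnfrsf19, whereas those of Lrp5 and Nkd1 overlapped.

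Of the 9 genes 8 had enough UMIs to be measured, Ndp being the exception. Of these, 3 (Axin2, Apcdd1 and Tnfrsf19) lay below the median by more than 1.5-fold and 0 above it, with a median of -0.50. Among all measured genes 9.51% lay lower and 10.1% higher by that fold. At a smaller fold, past 0.32 on the log2 scale, the count was 5 of 8, all 5 response genes, beside 23.1% of all genes. These counts depend on how cells are averaged. As the mean of per-cell CPM, in which each cell weighs the same, 1 gene (Apcdd1) lay past 1.5-fold, the median was -0.12, Tnfrsf19 was at -0.54, Axin2 at -0.20 and Nkd1 turned to 0.35. When both libraries were given an equal makeup of the dividing, tip and barrier capillary sub-clusters, 1 gene (Tnfrsf19, -1.05) lay past it. Sub-clusters with fewer than 20 cells in either library, of 299, 258, 183 and 24 knockout cells, were left out of this makeup. Its barrier capillary part, weighted like the others, rests on 41 knockout cells. With that makeup Lef1 came to -0.08, Axin2 and Apcdd1 to -0.43 each, Lrp5 to -0.56 and the median to -0.43. The share of all genes past 1.5-fold was not counted under either average.

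**Figure D2:**
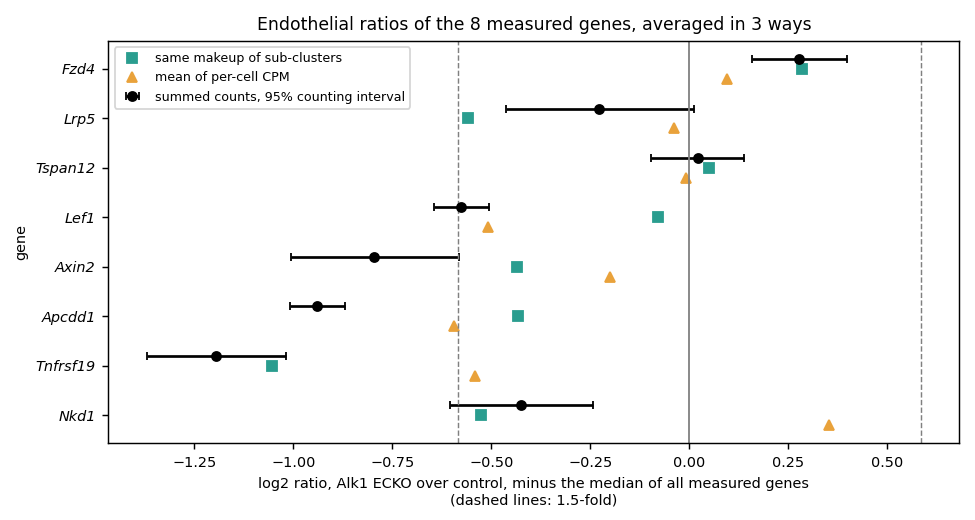
Log2 ratio of knockout over control in endothelial cells, minus the median of all measured genes (x axis), for the 8 measured genes (y axis). Black points are summed counts with 95% counting intervals and orange triangles the mean of per-cell CPM. Green squares use the same makeup of the dividing, tip and barrier capillary sub-clusters alone. Fzd4 and Tspan12 stay close to 0, Lrp5 reaches -0.56 with the same makeup, Tnfrsf19 stays furthest left with summed counts (-1.19), and Nkd1 moves to the right of 0 as a mean of per-cell CPM (0.35).

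Transcripts of other cell types also differed between the endothelial classes of the libraries. The 14 rod markers summed to 97.0 CPM in control against 16.3 CPM in knockout endothelial cells, beside 1399 CPM of Nrl alone in control rods, and 1 of them was at 0 in the knockout. The 12 mural markers summed to 4.25 and 38.3 CPM, with 4 of them at 0 in control, and the 14 microglial and macrophage markers to 50.02 and 59.6 CPM. The 17 Müller glia markers, several of which endothelium also expresses, summed to 3389 and 4324 CPM, with the glial genes Kcnj10 and Abca8a at 0 in both. Erythroid markers summed to 222 and 352 CPM. Their part in the ratios was not tested. Counting in a mural-mixed sub-cluster of 4 control and 100 knockout cells left the Tnfrsf19 ratio at -1.17 and the Apcdd1 ratio at -0.89.

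The response genes and the receptors had different orders over the endothelial sub-clusters. Made without the 9 genes, the sub-clusters were a dividing one named from G2/M genes (79 control and 246 knockout cells), a tip cell one (25 and 213), a barrier capillary one (173 and 41), an arterial one (0 and 183) and 3 without a name. The arterial one held 2 MHC class II genes among its top 10 genes besides elastin, and it was kept because the limit for sub-clusters counted markers of other cell classes alone. Of the unnamed ones, sub-cluster 7 (15 and 24 cells) was led by Six3os1 and Aqp1 and sub-cluster 2 (6 and 258) by Apod and Htra3. The third, sub-cluster 1, held 11 and 299 cells. Sub-clusters were named only by their rank against the mean of the others. Sub-cluster 2 held 4 barrier capillary markers when ranked against the median, and its values are set beside the barrier capillary ones below. Cell depth differed among them, with a median of 49578 UMIs in the dividing, 15104 in the barrier capillary and 2435 in the arterial sub-cluster. The libraries filled the sub-clusters unevenly, and shares of sub-clusters are not compared here.

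Tip cells, which lead growing sprouts, had lower levels of the response genes than barrier capillary cells. The Apcdd1 level of tip cells was 69.7 CPM (52.5 to 90.8) in control against 42.7 CPM (38.5 to 47.2) in the knockout. Their Tnfrsf19 level was 8.88 CPM (3.57 to 18.3) and 4.60 CPM (3.30 to 6.23). Barrier capillary cells, named from transporter genes of the blood-retina barrier, held 404 CPM (386 to 423) and 289 CPM (252 to 330) of Apcdd1 and 357 CPM (340 to 375) and 343 CPM (303 to 388) of Lef1. The Lef1 level of tip cells was 134 CPM (110 to 163) and 109 CPM (102 to 116). It overlapped that of dividing cells, 136 CPM (126 to 148) and 107 CPM (102 to 112), so low Lef1 was not particular to tip cells. Dividing cells held 111 CPM (101 to 121) and 76.2 CPM (71.9 to 80.7) of Apcdd1, above tip cells and below barrier capillary cells. Within each library the barrier capillary and tip intervals did not overlap for either gene. Fzd4 had no such gap: 67.2 CPM (60.0 to 75.2) in barrier capillary and 64.7 CPM (48.1 to 85.0) in tip cells of the control, and 79.5 CPM (60.7 to 102) and 86.2 CPM (80.2 to 92.5) in the knockout. Barrier genes partly overlap with known targets of this pathway, so sub-clusters built on them are not independent of it.

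Sub-cluster 7 had the highest values of all 5 response genes, but its Lef1 level of 406 CPM (342 to 477) in control against 379 CPM (330 to 434) in the knockout overlapped that of barrier capillary cells. The arterial sub-cluster came next for Axin2, Tnfrsf19 and Nkd1, and its intervals for these genes overlapped those of sub-cluster 7 in control. Within the knockout the intervals of these sub-clusters overlapped for Axin2 and Tnfrsf19 but not for Nkd1. In sub-cluster 7 Apcdd1 reached 554 CPM (480 to 637) in control against 616 CPM (552 to 685) in the knockout, and Axin2 120 CPM (87.1 to 162) and 139 CPM (110 to 174). These are sums over 15 and 24 cells. Fzd4 in sub-cluster 7 was at 104 CPM (72.9 to 143) in control against 39.7 CPM (24.9 to 60.2) in the knockout. Its ratio there was -1.44 (-2.27 to -0.64) relative to the median of that sub-cluster. Nkd1 was at 185 CPM (143 to 235) and 361 CPM (313 to 415), higher in the knockout by 0.91 (0.50 to 1.33) relative to the median of that sub-cluster, the opposite side from all endothelial cells. The arterial sub-cluster, found in the knockout alone, held 89.1 CPM (68.5 to 114) of Axin2, 139 CPM (113 to 169) of Tnfrsf19 and 126 CPM (101 to 155) of Nkd1. Its Fzd4 level of 15.6 CPM (7.77 to 27.8, 11 UMIs) was the lowest of all sub-clusters of at least 20 cells, and overlapped only the 39.7 CPM (24.9 to 60.2) of sub-cluster 7 in the knockout. High response genes thus stood beside low Fzd4 counts there. Tspan12 was at 60.8 CPM (44.0 to 81.9) in the same cells, within the range of the other sub-clusters. Leaving these cells out moved the Tnfrsf19 ratio of all endothelial cells to -1.39 and the Axin2 ratio to -0.94.

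**Figure D3:**
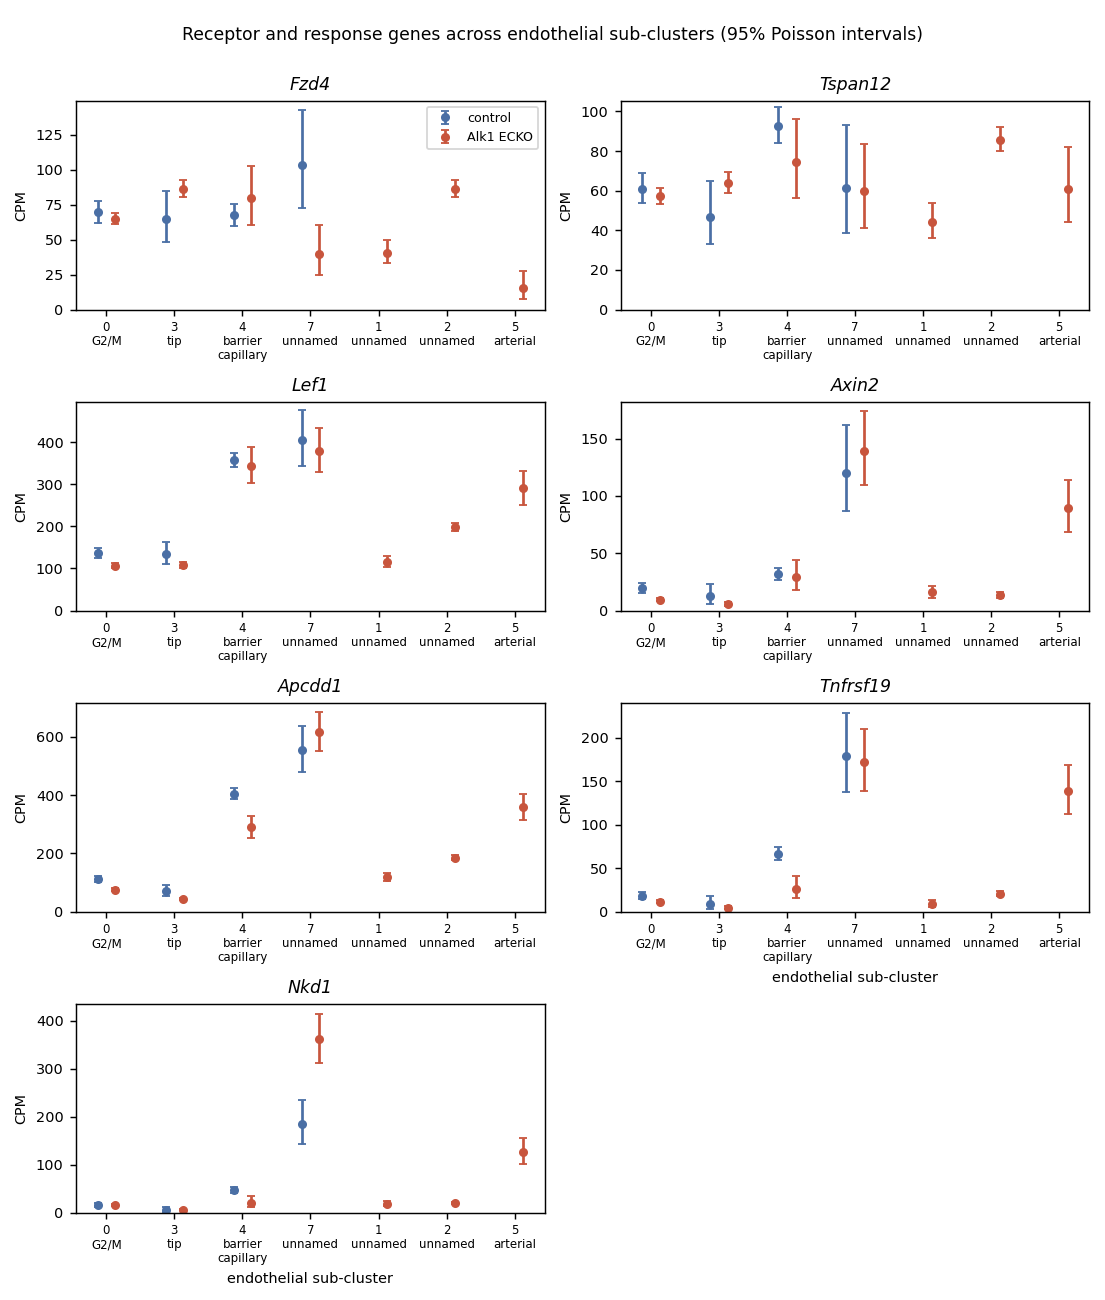
CPM of 2 receptor genes and the 5 response genes (one panel each, y axis) in endothelial sub-clusters with at least 15 cells of a library (x axis), in control (blue) and knockout (red), with 95% Poisson intervals. Response genes are high in sub-clusters 7, 5 and 4 and lower in tip and dividing cells. An exception is knockout Nkd1 in sub-cluster 4, at 21.2 CPM (12.1 to 34.4), which overlaps dividing cells at 16.7 CPM (14.7 to 18.9). Fzd4 lies between 64.7 and 86.3 CPM in the dividing, tip and barrier capillary sub-clusters and in sub-cluster 2, and is lowest in the arterial one.

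Within sub-clusters the response genes did not all differ by the same size. In barrier capillary cells Tnfrsf19 was at 66.6 CPM in control against 26.5 CPM in the knockout, a ratio of -1.33 (-2.06 to -0.68) relative to the median of that sub-cluster. Nkd1 was at 47.9 and 21.2 CPM, a ratio of -1.18 (-2.01 to -0.45), and Apcdd1 had a ratio of -0.49 (-0.70 to -0.29). Lef1 and Axin2 had ratios of -0.06 (-0.26 to 0.13) and -0.12 (-0.84 to 0.53) there. These values turn on which cells count as barrier capillary, since the knockout side is 41 cells. In the 258 knockout cells of sub-cluster 2, Lef1 was at 199 CPM (190 to 208), Apcdd1 at 186 CPM (177 to 195) and Axin2 at 13.3 CPM (11.1 to 15.9), all below the barrier capillary intervals of control. With sub-cluster 2 added to the barrier capillary one (179 control and 299 knockout cells, a comparison added after the sub-clusters had been seen), the Lef1 ratio was -0.61 (-0.71 to -0.52) and the Axin2 ratio -0.95 (-1.29 to -0.61). Apcdd1 was then at -0.90 (-0.99 to -0.80), Tnfrsf19 at -1.49 (-1.75 to -1.23) and Nkd1 at -1.06 (-1.35 to -0.78), while Fzd4 was at 0.46 (0.28 to 0.65) and Tspan12 at -0.00 (-0.17 to 0.17). In this sum 173 of the 179 control cells were of the barrier capillary sub-cluster and 258 of the 299 knockout cells of sub-cluster 2. Library and sub-cluster therefore cannot be told apart in it. In the dividing sub-cluster Axin2 was at 19.4 CPM in control against 9.47 CPM in the knockout, a ratio of -0.86 (-1.26 to -0.45). Lef1 had a ratio of -0.18 (-0.31 to -0.04) in those cells, and Nkd1 one of 0.29 (-0.10 to 0.71). Tip cells held few UMIs in control, and of the response genes only Apcdd1, at -0.63 (-1.04 to -0.19), had an interval that left out 0. Of the receptor genes, Lrp5 was at -0.38 (-0.74 to -0.01) in dividing and -0.55 (-1.29 to 0.27) in tip cells. In barrier capillary cells it was at -0.79 (-2.04 to 0.26), from 8 knockout and 84 control UMIs. In the same order Fzd4 was at 0.08, 0.49 and 0.24, and Tspan12 at 0.09, 0.53 and -0.33. For these genes only the tip cell intervals left out 0 (Fzd4 0.08 to 0.93, Tspan12 0.05 to 1.05). Whether these ratios differ between sub-clusters was not tested.

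Counted per cell, fewer response genes were found in knockout than in control endothelium, and about as many receptor genes. Thinned to 5000 UMIs, which left out 23 control and 350 knockout cells, control endothelial cells held a UMI of 1.75 of the 5 response genes on average and knockout cells 1.18. Of the 350, 135 were arterial, a sub-cluster high in response genes, and 184 were of sub-cluster 1. Thinned to 2000 UMIs, which left out 166 knockout cells and still 75 arterial ones, the averages were 0.927 and 0.615. At 5000 UMIs none of the 5 was found in 13.6% of control and 27.8% of knockout cells, against 36.9% and 54.3% at 2000. For the 3 receptor genes the averages were 0.633 and 0.639 at 5000 UMIs and 0.252 and 0.290 at 2000. By gene at 5000 UMIs, 22.4% of control (17.7 to 27.7) and 9.08% of knockout cells (7.30 to 11.1) held a Tnfrsf19 UMI. For Fzd4 these shares were 22.0% (17.4 to 27.3) and 27.4% (24.5 to 30.4). Unthinned, the Tnfrsf19 shares were 51.5% and 28.2% and the Fzd4 shares 62.5% and 56.1%, at median depths of 19370 and 15746 UMIs. At 5000 UMIs the Tnfrsf19 share was 0 of 49 (0 to 7.25%) and 0 of 202 (0 to 1.81%) microglia or macrophages. The Fzd4 share was 1.98% in those of knockout, and their median depths before thinning were 12570 and 13844 UMIs. Thinned to 2000 UMIs, Nkd1 was found in 3.99% of control and 5.74% of knockout endothelial cells, the reverse order of its shares at 5000 UMIs.

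**Figure D4:**
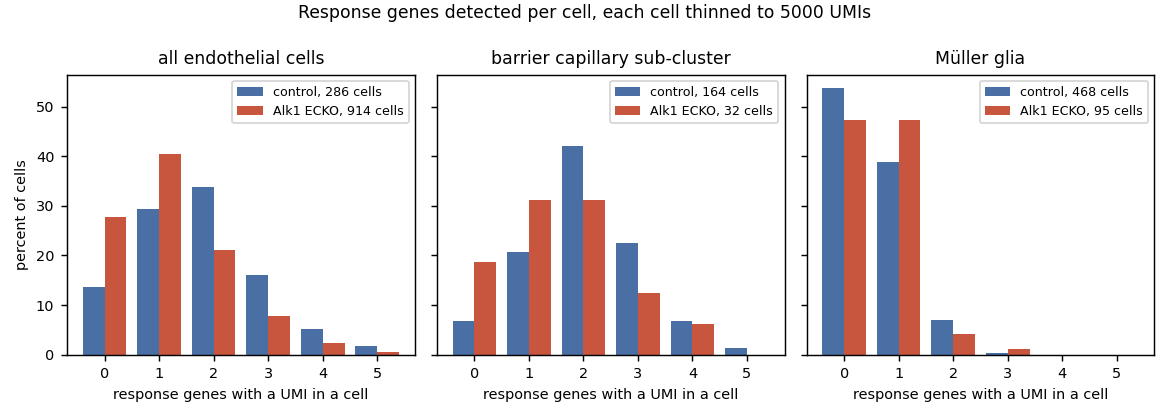
Percent of cells (y axis) by the number of the 5 response genes with a UMI (x axis), in control (blue) and knockout (red) cells thinned to 5000 UMIs, for all endothelial cells, the barrier capillary sub-cluster and Müller glia. Cells without any response gene were 13.6% in control and 27.8% in knockout endothelium.

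In the barrier capillary sub-cluster alone the averages were 2.05 response genes in 164 control cells and 1.56 in 32 knockout cells. Müller glia held 0.536 and 0.589 response genes per cell, most of them Nkd1, and 0.246 and 0.242 when thinned to 2000 UMIs.

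The upstream sequences of 4 of these genes are shown because the words read by TCF and LEF factors can be looked for in them: the 3 windows that held such a word, chosen for it, and that of Axin2, a called response gene without one. RefSeq windows (GRCm38.p6) from 250 bases before to 50 bases after a transcription start matched 7 of the genes with 11 starts. They were searched on both strands for CTTTG followed by 2 bases that are each A or T. Such a word was found in 3 of the 11 windows, beside 16.9% of all 32851 windows. The other 3 starts of Lef1, the other start of Tnfrsf19 and the windows of Fzd4, Tspan12 and Nkd1 held none. Each line gives the 250 bases before the start, read 5′ to 3′ on the strand of the gene, with a match in capitals.
Ndp, chrX:16911775-16912024, minus strand: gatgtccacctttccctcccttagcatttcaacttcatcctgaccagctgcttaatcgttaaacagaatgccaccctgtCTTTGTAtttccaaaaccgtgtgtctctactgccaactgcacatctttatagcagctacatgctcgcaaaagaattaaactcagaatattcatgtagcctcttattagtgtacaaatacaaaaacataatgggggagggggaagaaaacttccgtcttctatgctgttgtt
Lef1, the most downstream start, chr3:131156044-131156293, plus strand: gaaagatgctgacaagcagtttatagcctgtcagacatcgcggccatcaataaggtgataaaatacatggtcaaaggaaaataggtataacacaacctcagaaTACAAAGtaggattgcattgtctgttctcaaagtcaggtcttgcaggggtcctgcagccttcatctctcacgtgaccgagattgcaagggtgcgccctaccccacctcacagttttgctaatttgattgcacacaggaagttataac
Tnfrsf19, the more downstream start, chr14:61037988-61038237, minus strand: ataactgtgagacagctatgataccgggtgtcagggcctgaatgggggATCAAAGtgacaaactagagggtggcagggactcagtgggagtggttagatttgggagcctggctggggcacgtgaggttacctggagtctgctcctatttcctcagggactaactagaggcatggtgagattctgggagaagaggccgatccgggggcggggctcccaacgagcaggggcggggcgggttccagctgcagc
Axin2, chr11:108920099-108920348, plus strand: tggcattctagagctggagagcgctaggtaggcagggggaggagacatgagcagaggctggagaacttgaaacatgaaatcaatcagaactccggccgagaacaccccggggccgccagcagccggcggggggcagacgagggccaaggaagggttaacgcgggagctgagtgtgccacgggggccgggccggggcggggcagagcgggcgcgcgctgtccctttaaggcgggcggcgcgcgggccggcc
The Ndp match begins 171 bases before the start. Those of Lef1 and Tnfrsf19 lie on the other strand, 147 and 202 bases before theirs. Axin2, whose level was lower in the knockout like that of Tnfrsf19, has none of these words in its window. A match is a letter string and not a measured binding site, and no binding was measured here.

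The rest of the pathway did not follow the response genes as a whole. Of 89 other genes of Wnt signalling and of the blood-retina barrier, 52 were measured in endothelial cells, of which 11 lay lower and 4 higher by more than 1.5-fold, with a median of -0.20, beside 9.51% and 10.1% of all measured genes. Among the other receptors and co-receptors 1 of 11 was lower (Fzd3, -0.61) and 1 higher (Fzd9, 1.72 from 52 and 5 UMIs). Fzd6, a receptor of planar polarity signalling, was at -0.48, and Fzd8 at 0.09. Of 16 intracellular transducers 2 were lower, Dvl2 (-0.69) and Bcl9 (-0.65), a scaffold protein and a β-catenin co-factor. The highest were Axin1 (0.18), the paralogous scaffold of the destruction complex, the kinase gene Csnk1a1 (0.10) and Dvl1 (0.07). The receptors and transducers thus lay mostly within 1.5-fold of the other genes.

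Other feedback and response genes were split. Sp5, a transcription factor of the Wnt response, was lower (-0.64, 11.5 CPM in control against 6.37 CPM in the knockout), as Axin2 was. The other Dishevelled inhibitor gene Nkd2 was higher (1.06, 3.38 and 6.08 CPM), and so were Cd44 (0.95) and the cyclin gene Ccnd1 (0.78, 253 and 377 CPM). The remaining 4 of 8, Myc at -0.45 among them, lay within 1.5-fold. Of 14 barrier genes that depend on norrin or Wnt, 6 were lower and 0 higher, with a median of -0.44. The lowest were Slco1c1, Spock2 and Mfsd2a, at -2.64, -1.82 and -1.20, and the highest were Foxq1, Foxf2 and Slc2a1, at 0.27, 0.10 and 0.04. Slco1c1, Spock2 and Mfsd2a are also among the top genes of the barrier capillary sub-cluster, which held 173 of 309 control but 41 of 1264 knockout cells. With the same makeup of the dividing, tip and barrier capillary sub-clusters, the others left out, they were at -1.93, -0.76 and -0.61. Of the 14 barrier genes 5 were then lower, and the list's median was -0.10. With that makeup 0 of the 16 transducers were lower. The share of all genes past 1.5-fold was not counted with it. Plvap, which endothelium without the signal is known to raise, was at -0.22 (-0.29 to -0.14), on the lower side.

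**Figure D5:**
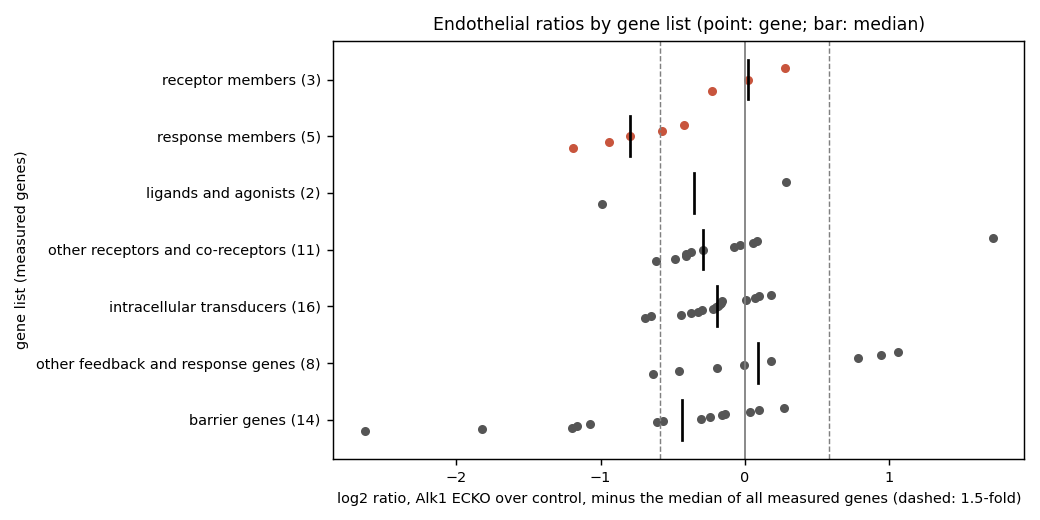
Log2 ratio of knockout over control in endothelial cells, minus the median of all measured genes (x axis), for each measured gene by list (y axis, number of measured genes in brackets); the bar is the list's median and dashed lines mark 1.5-fold. Response genes all lie left of 0, and barrier genes reach -2.64.

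In Müller glia the ligand gene had a ratio of -0.91 (-1.96 to -0.01) relative to the median of 8677 measured genes, which was -0.15. The knockout value rests on 11 UMIs. With late progenitors counted in, the ratio was -0.77 (-1.82 to 0.12), an interval that held 0, and it ranged from -0.99 to -0.62 over the alternatives tried. Of 5 measured genes, 2 (Ndp, and Axin2 at -0.89 from 5 and 47 UMIs) were lower past 1.5-fold and 0 higher, beside 12.4% and 6.6% of all genes measured in these cells. The Axin2 interval (-2.58 to 0.43) held 0. Nkd1, the best counted of the genes in Müller glia, had a ratio of 0.20 (-0.12 to 0.51). Cre was driven in endothelium, and Müller glia of the 2 libraries also differed in endothelial marker transcripts, which summed to 840 CPM in control against 622 CPM in the knockout. Their part in these ratios was not tested.

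Secreted Wnt inhibitors were counted in several classes. Sfrp2, a soluble Frizzled-related protein, was at 22.3 CPM in control against 52.5 CPM in knockout Müller glia, a ratio of 1.39 (0.86 to 1.91), and at 36.2 CPM (25.3 to 50.1) in control late progenitors. Frzb, of the same family, was at 9.59 and 16.4 CPM (0.93, -0.03 to 1.82). Dkk3, a Dickkopf-family glycoprotein used here among the marker genes of Müller glia, was at 644 and 579 CPM (-0.00, -0.14 to 0.13), and at 514 CPM in control late progenitors. Dkk2, of the Dickkopf family too, was at 12.4 CPM in control against 13.6 CPM in knockout endothelial cells, beside 1 and 0 UMIs in Müller glia. It was among the top genes of the arterial sub-cluster, found in the knockout alone. Its levels in other classes are not given here. Of the Wnt ligands and agonists none reached 50 UMIs over both libraries in Müller glia. The highest levels of such genes in any class were 60.4 CPM of Wnt5b in control cells of the cluster led by Mybl1 and Vxn, 32.0 CPM of Wnt5a in control cells of an unnamed cluster led by Ttr and Nhlh2, and 26.5 CPM of Rspo2 in knockout rods.

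Over the 19 pairs of class and library with at least 50 cells, the genes whose log2(CPM + 10) followed Ndp most closely among 7807 genes were Dipk1c, Adam23 and Sulf1 (Pearson r of 0.966, 0.964 and 0.949). Those closest to Fzd4 were Dock6, Tcf7, which encodes a nuclear partner of β-catenin, and Tmem204 (0.967, 0.965 and 0.963). Those closest to Apcdd1 were Pxdn, Filip1 and Notch4 (0.879, 0.865 and 0.862). With Fzd4, Lef1 had an r of 0.934, Tspan12 and Tnfrsf19 of 0.877 each and Apcdd1 of 0.619. Lrp5 had one of 0.422, Nkd1 of 0.274, Axin2 of 0.197 and Ndp of -0.211. With Ndp, Nkd1 had an r of 0.755. Fzd4 exceeded 7.20 CPM in endothelial and mural cells alone, so its values rest largely on those points. Points of one library share its depth and free RNA, and these values are descriptions without a test.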

How the data were processed

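Both libraries were made with a 10x Genomics 3′ kit, per the labels' protocols. The authors deposited raw UMI counts per gene and barcode. Per the file headers, Cell Ranger 5.0.1 wrote them. Version 6.1.1 of Cell Ranger, FastQC 0.11.9 and the build mm10 stand in the submitters' processing notes. How many animals entered a library and when recombination was induced are not stated in the labels.

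Cells needed 1000 UMIs, 500 genes and a mitochondrial share of no more than 10%. Scrublet (scanpy 1.11.5) called 0 control and 1 Alk1 ECKO doublets automatically, so the highest scores were removed at 0.8% per 1000 cells: 500 control cells (6.32%) and 144 Alk1 ECKO cells (3.40%). Cells were clustered on 3000 variable genes without the 9 genes, with 30 components, 15 neighbours and Leiden resolution 1 (leidenalg 0.10.2), and endothelial cells again at 0.6. A cluster took a class from at least 3 markers among its top 20 genes ranked against the mean of the other clusters, or at least 4 ranked against their median. Clusters were set aside if their median mitochondrial share was below 1%, their median doublet score above 0.1, or 2 or more of their top 10 genes marked another class. Endothelial sub-clusters were named from the rank against the mean alone, and were left out only for markers of another cell class. These naming rules were chosen with the clusters already in view. UMIs were summed per class and library (10356816 for control and 37809970 for Alk1 ECKO endothelium) and given as CPM.

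Intervals are exact: Poisson for CPM, conditional binomial for ratios, Clopper-Pearson for shares of cells. A count of 0 allows up to 3 counts. The calculation was tested on simulated data. Genes counted as lower or higher past 1.5-fold from the median of all genes with at least 50 UMIs. The 9 genes and the gene lists were chosen with earlier results of these data known, and no pattern already seen in them is independent support. In each list at most the 3 lowest and 3 highest genes were to be named. Gene positions are from GENCODE vM21 (GRCm38). The alternatives tried are listed with their effect in the closing section.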

Additional observations from a re-analysis of the deposited data

How the results depend on the processing

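No paired analysis was possible because each genotype had 1 library and no result comes from a test. The count of the 9 genes lower past 1.5-fold in endothelial cells (3 of 8 measured) ranged from 1 to 5 over 14 alternatives, and their median (-0.50) from -0.73 to -0.12. Without the dividing sub-cluster the count was 5, the median -0.73 and the median of the other pathway genes -0.36. Without centring, the count was 5, the median -0.71, and 18 other pathway genes were lower with a median of -0.41. The median of all measured genes was itself -0.21 without centring. At a call past 0.32 on the log2 scale the counts were 5 and 20, beside 23.1% of all measured genes. As means of per-cell CPM they were 1 and 6 with a median of -0.12 for the 9 genes, and Nkd1 reversed to 0.35. With the same makeup of the dividing, tip and barrier capillary sub-clusters alone the count was 1 and the median of the other pathway genes -0.038. The share of all genes past the call was counted only in the main setting and at the call past 0.32. The counts of the other settings therefore have no such share beside them. The other settings, which changed doublet removal, depth, the mitochondrial limit, resolution, the gene minimum, the clustering genes and set-aside cells, gave counts of 3 or 4. Of these, counting in the mural-mixed sub-cluster and leaving out the arterial one were chosen after the clusters had been seen. Counting in the low-mitochondrial cluster brought 2490 Alk1 ECKO cells against 312 and a Tnfrsf19 ratio of -1.25. Counting sub-cluster 2 with the barrier capillary cells, also chosen later, moved the Lef1 and Axin2 ratios there to -0.61 and -0.95. Most knockout cells of that sum were of sub-cluster 2 and most control cells were not. Keeping the 9 genes in the clustering left the endothelial cells and ratios as they were. Apcdd1, Axin2, Lef1 and Tnfrsf19 kept a ratio below 0 in all 13 alternatives run for them. No low-mitochondrial cluster matched Müller glia, so that alternative was not run there. Depth limits the Ndp comparison, with 11 UMIs in Alk1 ECKO Müller glia.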

Other observations

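Cells set aside for their low mitochondrial share held response genes at other levels than the endothelial class. In the 1226 Alk1 ECKO cells matched to endothelium, with a median of 1862 UMIs per cell, Lef1 was at 17.3 CPM (13.1 to 22.5), Apcdd1 at 35.2 CPM (29.0 to 42.3) and Fzd4 at 18.5 CPM (14.1 to 23.9). Nkd1 was at 29.96 CPM (24.3 to 36.5) and Tspan12 at 44.2 CPM (37.2 to 52.0). The haemoglobin gene Hba-a1 was at 402 CPM and C1qa at 770 CPM in these barcodes, and their part in the values was not tested. The 3 control cells of this cluster held no UMI of any of the 9 genes.

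Mural cells of the control library, 11 cells outside the size limit used above, held 118 CPM of Tspan12 (68.6 to 189), 97.0 CPM of Nkd1 (53.0 to 163) and 76.2 CPM of Apcdd1 (38.0 to 136). The Nkd1 interval lay above the 28.8 CPM (22.4 to 36.4) of the 149 Alk1 ECKO mural cells, and the Tspan12 and Apcdd1 intervals overlapped theirs. The 14 control Nkd1 UMIs came from 4 of the 11 cells, and the interval leaves out variation between cells. In the 22 knockout amacrine cells Ndp was at 26.6 CPM (7.25 to 68.2) from 4 UMIs, an interval that overlapped those of control and knockout Müller glia.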
